A study of Mus musculus with 20 samples.

Results

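The histone genes of the mouse were followed in whole tracheas with and without detergent injury of the epithelium, in wild-type and in Myd88-deficient mice. They were taken as every non-control probe of the array whose gene name begins with Hist1h to Hist4h, H1f, H2af or H3f, which gave 67 probes for 47 gene names out of 41174 probes for 27962 names. Of these, 41 probes (31 genes) belonged to replication-dependent genes, the members of the histone clusters, and 21 probes (11 genes) to replication-independent genes, which encode the variants H1f0, H1fx, H2afj, H2afv, H2afx, H2afy, H2afy2, H2afy3, H2afz, H3f3a and H3f3b. The remaining 5 probes stood for germ-line genes, Hist1h1t, Hist1h2aa, Hist1h2ba, H1foo and H1fnt, and are described apart from both classes. The rule used names alone and no measured value.

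Gene expression was measured on 20 one-colour arrays, 1 a whole trachea, with 5 tracheas for each combination of genotype (wild-type or Myd88KO) and treatment (uninjured or injured). Wild-type mice were C57/Bl6, and Myd88KO mice lack the adaptor protein Myd88, through which Toll-like and interleukin-1 family receptors signal, in every cell. The labels give an age of 4 month for all groups, and injured tracheas were taken 3 days after airway instillation of 2% polidocanol, a detergent that strips the surface epithelium. The study's methods describe a wider age range, mice of both sexes and a colony of Myd88KO mice bred apart from the wild-type colony, so that differences between the genotypes cannot be told apart from differences between the colonies. Each of 5 slides carried 1 array of every group, the replicate number was the slide, and the slides were scanned on 2 days.

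The core histones H2A, H2B, H3 and H4 wrap DNA into nucleosomes and the linker histone H1 binds the DNA between them. Replication-dependent histone genes lie in clusters without introns, are transcribed mainly in S phase, and give messages that end in a stem-loop bound by Slbp instead of a poly(A) tail. Replication-independent genes have polyadenylated messages and are transcribed throughout the cell cycle, also in cells that no longer divide, while H2afx messages exist in both forms. The array targets were labelled from a T7 promoter primer that carries oligo(dT), so that stem-loop messages without a tail would be copied poorly, and how much of the signal of the replication-dependent genes came from tailed messages was not tested. In a whole trachea, fewer cells of a type and less RNA per cell cannot be told apart.

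Histone promoters carry short recurring elements, and the 150 bases before the transcription start are shown for 4 of the 5 replication-dependent H1 genes, whose responses to injury differed, and for 1 gene each of H2A, H2B, H4 and the variant H2A.Z. The sequences are from RefSeq (GRCm38.p6), run 5′ to 3′ on the strand of the gene and end at the base before the start. Capitals mark the TATA box (TATAAA, gene strand only), the CCAAT box (CCAAT, or ATTGG on the other strand), the octamer (ATTTGCAT, or ATGCAAAT on the other strand) and the H1 box (AAACACA on either strand).
Hist1h1b, chr13:21780626-21780775, minus strand: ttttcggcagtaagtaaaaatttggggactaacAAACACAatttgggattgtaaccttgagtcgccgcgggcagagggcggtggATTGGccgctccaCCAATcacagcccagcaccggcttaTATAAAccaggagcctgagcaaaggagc
Hist1h1e, chr13:23622559-23622708, minus strand: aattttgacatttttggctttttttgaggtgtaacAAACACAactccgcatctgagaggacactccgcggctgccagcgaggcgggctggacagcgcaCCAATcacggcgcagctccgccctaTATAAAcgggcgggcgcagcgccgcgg
Hist1h1d, chr13:23554882-23555031, plus strand: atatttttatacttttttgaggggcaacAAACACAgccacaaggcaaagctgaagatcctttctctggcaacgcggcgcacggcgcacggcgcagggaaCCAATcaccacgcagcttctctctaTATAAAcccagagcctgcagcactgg
Hist1h1c, chr13:23738657-23738806, plus strand: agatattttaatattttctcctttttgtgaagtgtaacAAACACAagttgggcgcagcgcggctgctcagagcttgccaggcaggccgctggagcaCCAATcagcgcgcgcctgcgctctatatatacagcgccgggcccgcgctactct
Hist1h2ab, chr13:23750938-23751087, plus strand: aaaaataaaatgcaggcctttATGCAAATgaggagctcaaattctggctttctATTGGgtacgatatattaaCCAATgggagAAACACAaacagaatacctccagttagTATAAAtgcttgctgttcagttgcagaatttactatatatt
Hist1h2bk, chr13:22035671-22035820, plus strand: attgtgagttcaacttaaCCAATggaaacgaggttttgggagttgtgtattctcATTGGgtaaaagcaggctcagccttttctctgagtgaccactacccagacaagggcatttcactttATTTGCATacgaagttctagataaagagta
Hist1h4d, chr13:23581418-23581567, plus strand: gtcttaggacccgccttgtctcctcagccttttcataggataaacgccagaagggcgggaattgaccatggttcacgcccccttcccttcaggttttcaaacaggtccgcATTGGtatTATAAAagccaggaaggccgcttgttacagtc
H2afz, chr3:137864337-137864486, plus strand: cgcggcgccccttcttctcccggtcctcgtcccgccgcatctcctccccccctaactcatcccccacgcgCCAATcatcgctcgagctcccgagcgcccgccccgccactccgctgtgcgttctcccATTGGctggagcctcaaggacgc

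The promoters of 40 of the 47 gene names were matched, in 41 entries. Over the 250 bases before the start, the CCAAT box was present in 23 of 27 replication-dependent entries against 33.8% of all 32851 promoters of the same length, and the TATA box in 12 of 27 against 7.59%. The octamer stood in 8 of 27 entries, against 1.6% of all promoters, and these were 5 of 10 H2A and 3 of 5 H2B entries. The H1 box stood in 4 of 5 H1 entries, 112 to 122 bases before the start, against 6.25% of all promoters. Of the replication-independent genes, 5 of 9 entries held the CCAAT box and 1 of 9 the TATA box. The H2A and H2B genes shared the CCAAT box and the octamer, whereas their array signals after injury, given further on, did not move alike. A match of letters is a description of these windows and says nothing of whether a factor was bound.

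**Figure D1:**
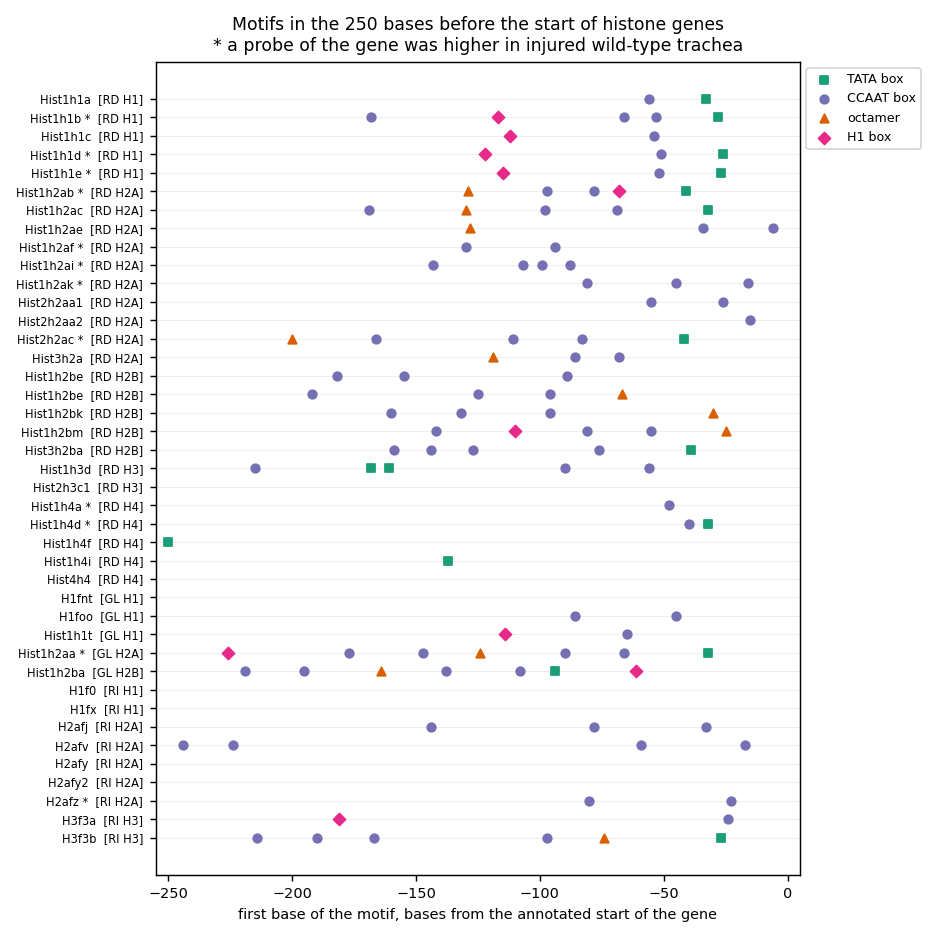
The 4 elements (TATA box, CCAAT box, octamer and H1 box) in the 250 bases before the start of histone genes, by class and type. The CCAAT box was present in 85.2% of replication-dependent entries and in 33.8% of all promoters, and the octamer in 29.6% and 1.6%.

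Probes entered the tests when 10 or more of the 20 arrays had them well above background, and values are log2 intensities relative to the 75th percentile of the array, which is set to 0. By this filter 58 of the 67 histone probes (43 genes) were tested, namely 35 replication-dependent, 19 replication-independent and 4 germ-line probes. The 9 others were the probes of H2afy2, Hist1h1t, Hist1h2ac and Hist1h3a, and 1 of the probes each of H2afz, Hist1h1d, Hist1h2bc, Hist2h2aa2 and Hist4h4. Histone genes of a type are nearly identical in their coding sequence, and 14 of the 58 tested probes list more than 1 RefSeq gene in the files, a field that holds at most 4. For these a value belongs to a set of genes and not to the gene in the name. A probe was called at a limma p, adjusted by the Benjamini-Hochberg method over all 26063 tested probes, under 0.01. The p-values rest on the spread between mice within their groups, shared over the 4 groups of 5. The spread of the injured Myd88KO arrays therefore also enters the wild-type p-values.

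The arrays were alike in depth, with a 75th percentile intensity of 532 to 1036 and 57.5% to 67.8% of spots well above background. The only Myd88 probe was well above background on all 20 arrays and gave 1.94 to 2.28 in uninjured wild-type and 1.60 to 2.04 in uninjured Myd88KO tracheas (adjusted p = 1.00, limma). After injury it gave 2.36 to 2.80 and 1.54 to 2.09, without overlap, and was called lower in Myd88KO (−0.77, adjusted p = 0.00824). Whether the deletion covers this probe is not given in the sources used here, so that it does not check the genotypes. Markers of club, ciliated and basal cells and of cartilage were well above background, as a trachea holds, and so were thyroid markers, at a summed linear level of 88.1 to 476 times the 75th percentile over all arrays. One injured Myd88KO array stood apart. Over the 1372 probes called in injured wild-type tracheas, the mean change in the direction of the wild-type response was 0.65, 1.77, 0.84, 1.73 and −0.07 on injured Myd88KO arrays 1 to 5, against 1.67 to 2.06 on the injured wild-type arrays. Array 5 of injured Myd88KO therefore lay within the range of the uninjured arrays (−0.13 to 0.16), and the main counts, medians and calls of this group are given with and without it.

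Injury raised histone messages in wild-type tracheas. Of 58 histone probes 14 were called, and each of the 14 was higher, for 13 gene names: 11 replication-dependent probes, 2 replication-independent probes and 1 germ-line probe. Some of these probes may not be separate measurements, as given further on. Over the whole array 3.24% of tested probes were called higher and 2.03% lower. The median log2 difference was 0.61 over the 35 replication-dependent probes, 0.28 over the 19 replication-independent probes and 0.00 over all tested probes. Injured and uninjured arrays did not overlap, with injured higher, for 23 histone probes, 18 of them replication-dependent, against 7.89% of all tested probes. All 14 called probes were higher on each of the 5 slides, by at least 0.29, and on both scan days, by 0.95 to 2.83 on the first and by 0.52 to 2.18 on the second. They were chosen for their rise on these same arrays, so that this is a description only. The response was not spread evenly over the histone types, which are therefore taken in turn.

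**Figure D2:**
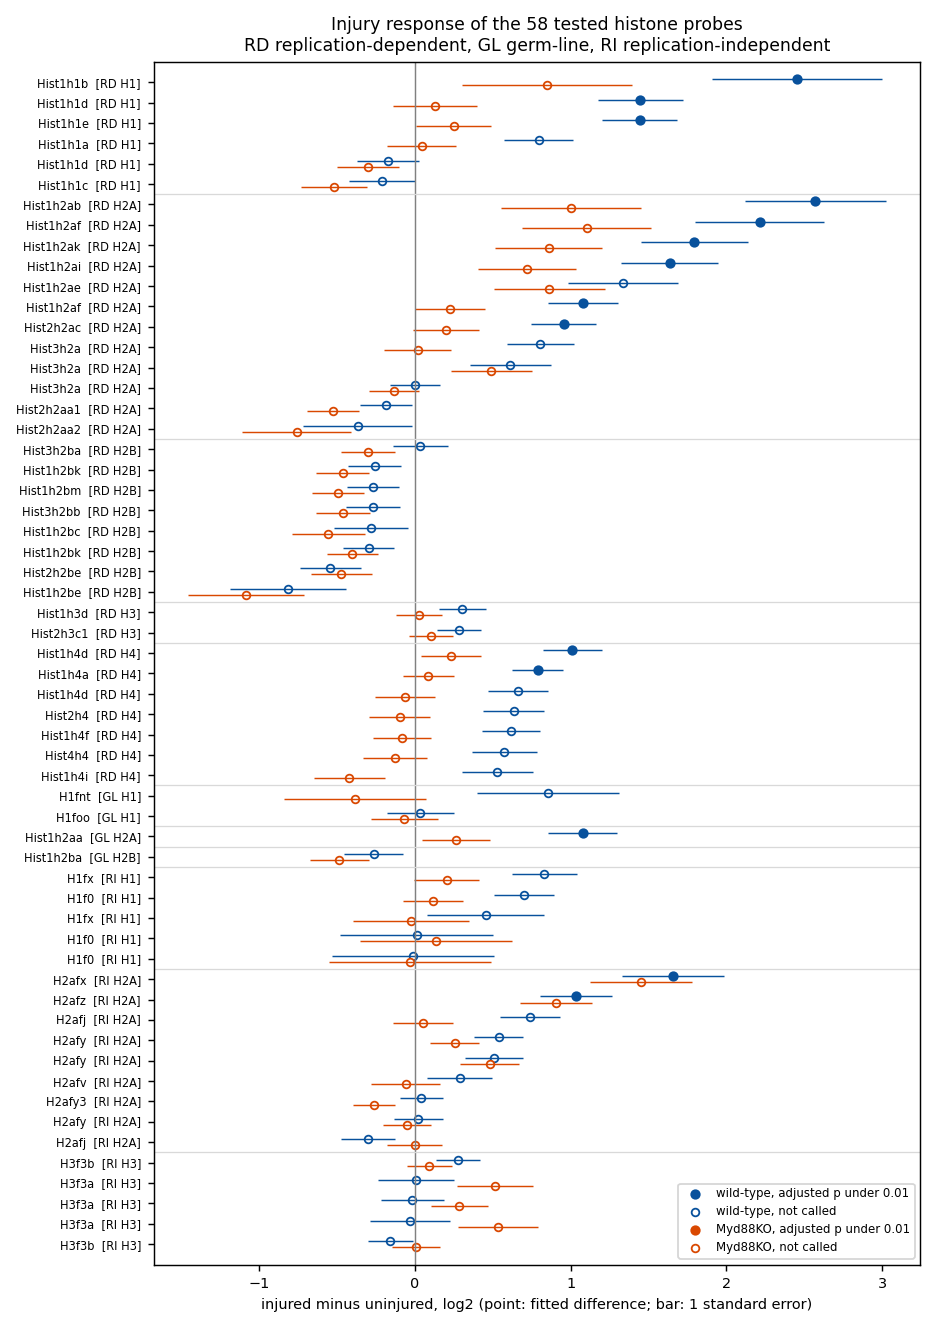
Fitted log2 difference between injured and uninjured tracheas (horizontal axis, with 1 standard error) for the 58 tested histone probes, in wild-type (blue) and Myd88KO (orange) mice, with filled points for adjusted p under 0.01. The 14 filled points are all wild-type and lie between 0.79 and 2.57, and the H2B probes lie at or left of 0 in both genotypes apart from 1 wild-type value of 0.04.

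Among the replication-dependent linker histones, 3 of 6 probes were called higher and the median was 1.12. Hist1h1b (current symbol H1f5), a linker histone of dividing cells, gave −2.69, −3.44, −1.57, −3.33 and −1.99 in uninjured and −0.06, 0.10, −0.21, −0.22 and −0.36 in injured wild-type tracheas. The groups lay well apart, and the uninjured arrays were much more spread than the injured ones. The log2 difference was 2.45 ± 0.55 (SE, n = 5 a group), a 5.48-fold rise (adjusted p = 0.00606, limma). With the slide as a block its adjusted p was 0.0103.

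Hist1h1e (H1f4), one of the major linker histones of somatic cells, rose from 0.23 ± 0.30 (SD) to 1.68 ± 0.17. Its uninjured values were 0.01, −0.14, 0.36, 0.33 and 0.61 and its injured values 1.55, 1.87, 1.58, 1.85 and 1.54, with no overlap. The rise was 2.72-fold (log2 1.44, SE 0.24, adjusted p = 0.00101), the smallest adjusted p of the histone probes. Hist1h1d (H1f3), also a somatic linker histone, was read by 2 tested probes that did not behave alike. The dimmer one, at chr13:22921576-22921635 in the files, whose build is not stated, gave −4.19, −4.30, −3.87, −4.45 and −3.70 uninjured and −2.77, −2.38, −2.52, −2.59 and −3.02 injured, a rise of 2.73-fold (log2 1.45, adjusted p = 0.00212). With normexp background correction its log2 difference was 0.71 (adjusted p = 0.00428). The brighter one differed by −0.17 (adjusted p = 0.621). Both list H1f3 alone, and which of them reads the message of the gene was not tested.

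Hist1h1a (H1f1) differed by 0.80 without overlap between the groups but was not called (adjusted p = 0.0219). Hist1h1c (H1f2), the linker histone that is also expressed in resting cells, was bright in all groups and did not pass the test, at −0.21 (adjusted p = 0.572). Its 5 uninjured values (3.79 to 4.65) and its 5 injured values (3.74 to 4.25) overlapped. The promoters of Hist1h1b, Hist1h1e, Hist1h1d and Hist1h1c, printed above, each hold the H1 box and a CCAAT box near the start. Among these only that of Hist1h1c lacks the letters TATAAA, at which place it reads tatata. The promoter of Hist1h1a, also not called, holds TATAAA 33 bases before the start. Of the called replication-dependent H2A and H4 genes, Hist1h2ab, Hist2h2ac and Hist1h4d hold these letters and Hist1h2af, Hist1h2ai, Hist1h2ak and Hist1h4a do not. The part of the TATA box in the responses was not tested.

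H2A, the partner of H2B in the nucleosome, had 6 of 12 replication-dependent probes called higher, for 5 genes, and a median of 1.02. Hist1h2ab (H2ac4), whose probe at chr13:23117325-23117384 in the files lists no other gene, showed the largest rise of the tested histone probes. Its values were −2.75, −3.30, −1.97, −3.71 and −1.67 in uninjured and 0.20, −0.07, −0.12, −0.30 and −0.25 in injured wild-type tracheas. The log2 difference was 2.57 ± 0.45 (SE), or 5.94-fold (adjusted p = 0.00143). As for Hist1h1b, the 5 injured arrays were close together and the uninjured ones were not.

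Hist1h2af (H2ac10) was read by 2 probes, both called. The dimmer one, which lists 4 H2A genes, gave 1.90, 1.11, 2.52, 1.02 and 2.38 uninjured and 4.05, 4.32, 3.95, 3.97 and 3.71 injured (4.64-fold, adjusted p = 0.00211). The brighter one, which lists 2, rose 2.11-fold (adjusted p = 0.00392). The injured arrays again lay close together on both probes.

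The probes of Hist1h2ak (H2ac15) and Hist1h2ai (H2ac13) rose 3.47-fold (adjusted p = 0.00245) and 3.11-fold (adjusted p = 0.00244). Their values over the 20 arrays correlated at r = 0.997, and with those of the dimmer Hist1h2af probe at r = 0.996 and 0.990. The Hist1h2ai probe lists 4 genes, so that these probes may not be separate measurements. Hist2h2ac (H2ac20), whose probe lists 4 H2A genes of the cluster on chromosome 3, rose from 5.75 ± 0.28 to 6.70 ± 0.16 (1.94-fold, adjusted p = 0.00586). This probe followed those of Hist1h2aa (r = 0.992) and the brighter Hist1h2af (r = 0.991), genes of the Hist1 cluster. Which of these genes it reads was not tested. Hist1h2ae (H2ac8) differed by 1.34 without overlap and was not called (adjusted p = 0.0174). The probes of Hist2h2aa1 (−0.19) and Hist2h2aa2 (−0.37) were not called, nor were the 3 probes of Hist3h2a (0.00 to 0.81). With the 5 H2A probes that list exactly 1 gene, 2 were called and the median was 1.34.

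H4, the most conserved of the core histones, moved evenly. Its 7 probes lay between 0.53 and 1.01 with a median of 0.64, and each was higher at an unadjusted p under 0.05, but 2 were called. Over all 26063 tested probes, 3784 were higher at that level. The Hist1h4d probe that lists H4c4 alone (chr13:22947440-22947499 in the files) gave 0.19, −0.05, 0.33, 0.12 and 0.64 in uninjured and 1.30, 1.34, 1.16, 1.44 and 1.04 in injured tracheas (2.02-fold, adjusted p = 0.00214). Hist1h4a (H4c1) lay between 1.22 and 1.69 in uninjured and between 1.98 and 2.32 in injured tracheas (1.73-fold, adjusted p = 0.00418). Neither probe overlapped between the groups. Of the others, the second Hist1h4d probe differed by 0.66 (adjusted p = 0.0274), Hist2h4 by 0.64 (adjusted p = 0.0366) and Hist1h4f by 0.62 (adjusted p = 0.0362), all without overlap. Hist4h4, the single gene of its cluster on chromosome 6, differed by 0.58 (adjusted p = 0.0737) and Hist1h4i by 0.53 (adjusted p = 0.137). The second Hist1h4d probe followed those of Hist1h4f, Hist2h4 and Hist4h4 over the arrays, at r = 0.992, 0.990 and 0.979. These H4 probes may therefore not be separate measurements.

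H3 was poorly covered, with 2 tested replication-dependent probes. Hist1h3d and Hist2h3c1, whose probes list 4 genes each, differed by 0.31 (adjusted p = 0.202) and 0.29 (adjusted p = 0.205). Hist1h3a (H3c1), a core histone gene of the cluster on chromosome 13, was too dim for the filter. Its probe was well above background on 0 of 5 uninjured and on 5 of 5 injured wild-type arrays, with injured values of −3.91, −3.65, −3.30, −3.73 and −3.60. Its rise was at least 2.27-fold, taking on each uninjured array the higher of its signal and the lowest signal that was well above background, and without the filter its adjusted p was 0.0026. In Myd88KO mice it was above background on 0 of 5 uninjured and 2 of 5 injured arrays (adjusted p = 0.223, limma without the filter). No least rise is given there, since most of the injured values were themselves at background.

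H2B stood apart from the other core histones. None of its 8 replication-dependent probes was called by limma, 7 of the 8 differences were below 0, the median was −0.27 and the range −0.81 to 0.04. At an unadjusted p under 0.05, 2 were lower and 0 higher, against 3102 and 3784 of all 26063 tested probes. The methods' one-way test called none of the 8 either. Hist1h2bm (H2bc14), whose probe lists 4 H2B genes, gave 3.68, 3.38, 3.24, 3.16 and 3.49 uninjured and 3.25, 2.92, 2.97, 3.25 and 3.24 injured (−0.27, adjusted p = 0.325). Its groups overlapped. Hist2h2be (H2bc21), an H2B gene known to give polyadenylated messages in differentiated cells, had the smallest adjusted p of the type, with 1.13, 1.30, 0.75, 1.09 and 1.05 against 0.15, 0.67, 0.67, 1.06 and 0.06 (−0.54, adjusted p = 0.0779).

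Hist1h2be (H2bc6) was well above background on 4 of 5 uninjured and on 0 of 5 injured wild-type arrays. The mean was at least 1.59-fold lower, with the uninjured array not above background counted at its signal. The probe was not called (adjusted p = 0.167). The 2 probes of Hist1h2bk, which list 4 genes each, differed by −0.26 and −0.29, Hist1h2bc by −0.28 and Hist3h2bb by −0.27, while Hist3h2ba, at 0.04, was the only one above 0. Over the arrays 1 of the Hist1h2bk probes followed those of Hist1h2bm and Hist3h2bb at r = 0.995 and 0.994, so that these may not be separate measurements. The 4 H2B probes that list exactly 1 gene had a median of −0.41. The H2B differences thus lay mostly below 0 and those of H2A mostly above it, although each nucleosome holds both in equal number. Whether the H2B probes read the stem-loop messages of S phase or a polyadenylated fraction was not tested.

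H2A and H2B genes often lie head to head and share a promoter. In 1 such pair both genes were measured, the germ-line genes Hist1h2aa (H2ac1) and Hist1h2ba (H2bc1), which are known from testis and whose starts lie 281 bases apart in GRCm38.p6. Hist1h2aa gave 6.27, 5.95, 6.25, 5.54 and 6.37 in uninjured and 7.24, 7.26, 7.10, 7.14 and 7.02 in injured wild-type tracheas, a rise of 2.11-fold (adjusted p = 0.0038). Hist1h2ba gave 2.68, 2.35, 2.09, 2.06 and 2.45 against 2.22, 1.85, 1.87, 2.19 and 2.18 (−0.26, adjusted p = 0.402). Over the 20 arrays the Hist1h2aa probe followed the brighter Hist1h2af probe at r = 0.997 and the Hist1h2ba probe followed 1 of the Hist1h2bk probes at r = 0.996. Of the 7 germ cell markers, Ddx4 and Dazl were well above background on 0 and 1 of the 20 arrays, Zp3 on 10, Prm2 on 14 and Prm1, Tnp1 and Tnp2 on all 20, at a summed linear level of 0.337 to 0.703 times the 75th percentile over the groups. Whether the probes read their named genes or somatic H2A and H2B messages was not tested.

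The germ-line linker histones H1foo, of the oocyte, and H1fnt, of the spermatid, differed by 0.04 (adjusted p = 0.934) and 0.86 (adjusted p = 0.243). H1fnt was well above background on 10 of the 20 arrays, the fewest that the filter allows.

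By cluster, with the germ-line probes left out, 10 of the 23 tested replication-dependent probes of the Hist1 cluster on chromosome 13 were called. Their median was 0.79. The Hist2 cluster on chromosome 3 had 1 of 6 called and a median of 0.05, and the Hist3 cluster on chromosome 11 had 0 of 5 and a median of 0.04. The called Hist2 probe was that of Hist2h2ac, which followed probes of the Hist1 cluster, as given above.

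The replication-independent variants moved less. H2afx (H2ax), the variant that is phosphorylated at DNA breaks, was the larger of the 2 that were called. It gave 2.62, 2.23, 3.04, 2.31 and 2.79 in uninjured and 3.66, 4.75, 4.49, 4.93 and 3.46 in injured wild-type tracheas, a rise of 3.16-fold (log2 1.66, SE 0.33, adjusted p = 0.00301). The 3 injured arrays of the first scan day were the highest, and the difference was 2.19 on that day and 0.85 on the second. H2afz (H2az1), which encodes the variant H2A.Z found at the starts of active genes, gave 4.79, 4.29, 4.41, 4.11 and 4.55 against 5.33, 5.67, 5.51, 5.78 and 5.05, a rise of 2.05-fold (log2 1.04, SE 0.23, adjusted p = 0.00603). It was 1.38 on the first and 0.52 on the second scan day. A second H2afz probe, at a place on chromosome 6 in the files, was above background on none of the arrays.

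H2afv (H2az2), the second H2A.Z gene, was bright and differed by 0.29 (adjusted p = 0.406). H3f3a and H3f3b, which encode the replacement histone H3.3 of resting cells, were also bright. The 3 probes of H3f3a lay at −0.03 to 0.01 and the 2 of H3f3b at −0.16 and 0.28, with adjusted p of 0.225 to 0.987. H3f3b, for example, gave 5.93, 5.86, 5.59, 5.60 and 5.50 uninjured and 5.78, 6.06, 6.03, 6.16 and 5.85 injured on its higher-responding probe. In 3 arrays a value for an H3.3 probe was left out as an outlier spot.

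H2afy (Macroh2a1), the macroH2A of silent chromatin, had 3 probes at 0.02, 0.51 and 0.54, none called (smallest adjusted p = 0.0307), and the single probe of H2afy3 differed by 0.04. H2afy2, the second macroH2A, was well above background on 5 of 20 arrays and was not tested. The probes of H2afj, a variant known to accumulate in senescent cells, disagreed, the brighter at 0.74 (adjusted p = 0.016, no overlap) and the dimmer at −0.30. The brighter H2afj probe followed the Hist1h2af probe over the arrays at r = 0.977.

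H1f0, the linker histone of differentiated cells, and H1fx were not called. H1fx differed by 0.83 (adjusted p = 0.0127) and 0.46 (adjusted p = 0.474) on its 2 probes. H1f0 differed by 0.70 (adjusted p = 0.0212) on its brightest probe and by 0.01 and −0.01 on the others. Those other 2 probes followed the scan day: in each of the 4 groups the arrays of the first day lay above those of the second, by 1.41 and 1.44 on average.

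**Figure D3:**
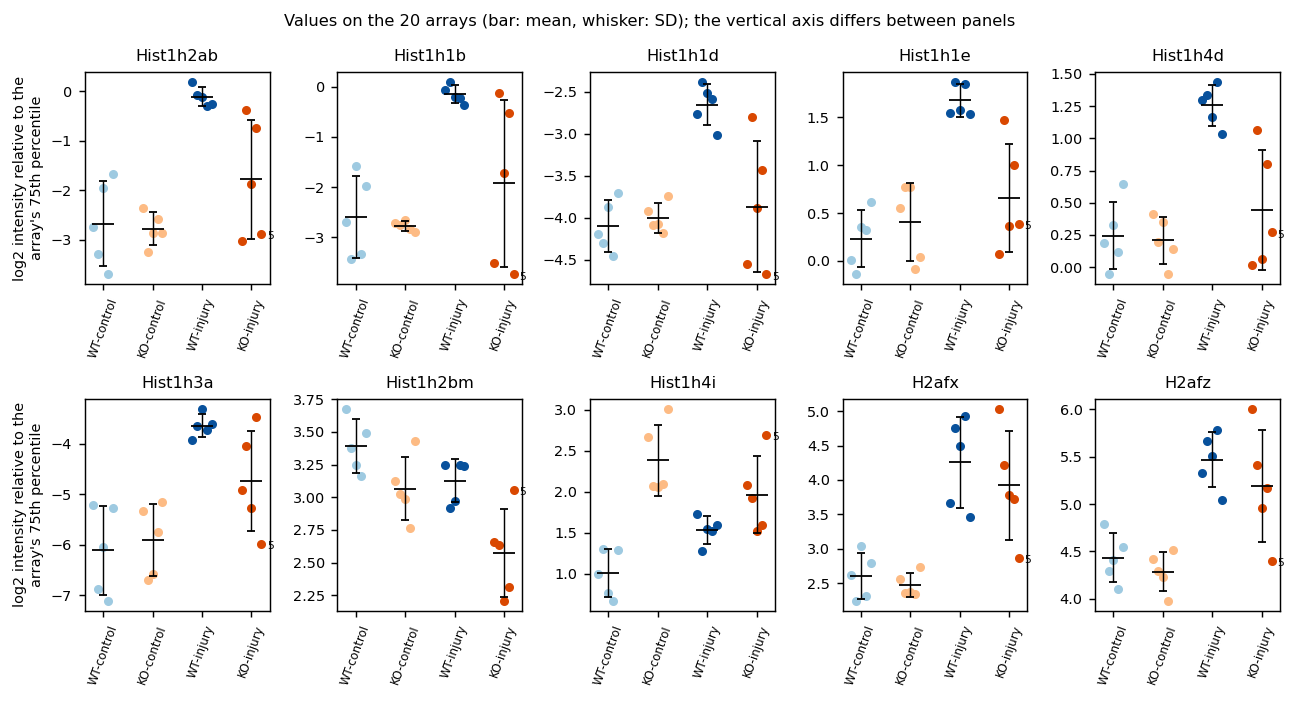
Log2 intensity relative to the 75th percentile of the array (vertical axis, range differing by panel) on each of the 20 arrays for 10 histone probes, with the mean and SD of each group (n = 5) and injured Myd88KO array 5 marked. Hist1h2ab lies at −0.30 to 0.20 on the injured wild-type arrays and at −3.71 to −1.67 on the uninjured ones, while the injured Myd88KO arrays range from −3.03 to −0.37.

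In Myd88KO tracheas no histone probe was called after injury by limma, where 0.376% of all tested probes were called, and the methods' one-way test called no probe of the array at all. At an unadjusted p under 0.05, 9 histone probes were higher (7.32% of all tested probes) and 11 lower (12.2%). The median was −0.06 over the replication-dependent probes, 0.12 over the replication-independent ones and −0.07 over all tested probes. The direction of the small replication-dependent median depended on the scaling, since it was 0.02 after quantile normalization. H2afx and H2afz came nearest to the threshold. H2afx gave 2.56, 2.35, 2.38, 2.35 and 2.73 uninjured and 5.04, 4.22, 3.78, 3.72 and 2.86 injured (log2 1.45, SE 0.33, adjusted p = 0.0238), and was higher on all 5 slides. H2afz gave 4.42, 4.30, 4.23, 3.97 and 4.51 against 6.01, 5.42, 4.96, 5.17 and 4.40 (0.90, adjusted p = 0.0362), with array 5 alone not above its slide partner.

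The replication-dependent genes varied from mouse to mouse in this group. Hist1h2ab gave −2.36, −3.24, −2.86, −2.58 and −2.88 in uninjured and −3.03, −0.37, −1.88, −0.74 and −2.88 in injured Myd88KO tracheas (log2 1.00, SE 0.45, adjusted p = 0.229). Hist1h1b gave −2.71, −2.75, −2.66, −2.84 and −2.90 against −3.51, −0.12, −1.73, −0.51 and −3.74 (0.85, adjusted p = 0.411). Without array 5 the differences were 1.28 for Hist1h2ab (adjusted p = 0.0709) and 1.31 for Hist1h1b (adjusted p = 0.0961). Arrays 2 and 4 reached or came near the wild-type level on both probes, and arrays 1 and 5 lay within or below the uninjured range.

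The same order was seen over the 14 probes called in wild-type. Their median change from the uninjured mean was −0.01, 1.16, 0.18, 0.74 and −0.04 on injured Myd88KO arrays 1 to 5, against 1.02 to 1.68 on the injured wild-type arrays. The 14 probes were chosen for their rise on these wild-type arrays, so that the wild-type values are raised by the choice and both sets of values are a description only. On array 1 of the injured Myd88KO group H2afx and H2afz were at their highest and Hist1h2ab at its lowest. The median change of the proliferation markers was 1.99, 3.10, 2.36, 3.30 and −0.18 on these 5 arrays, and that of the S phase genes 0.48, 1.90, 0.69, 1.79 and −0.31. The part of cell division in the histone values was not tested.

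H2B lay below 0 in Myd88KO tracheas too. All 8 replication-dependent probes had negative differences with a median of −0.47. At an unadjusted p under 0.05, 7 of the 8 were lower, against 12.2% of all tested probes. Some of the 8 may not be separate measurements, as given above. Without array 5 the median was −0.60, and again 7 of the 8 were lower at that level, against 4503 of all 26063 tested probes. Hist1h2bm gave 3.12, 3.02, 2.99, 2.76 and 3.43 uninjured and 2.66, 2.64, 2.20, 2.31 and 3.06 injured (−0.49, adjusted p = 0.107). The median change of the type was −0.40, −0.43, −0.79, −0.76 and 0.04 on arrays 1 to 5. Arrays 2 and 4, with the largest rises of H2A, thus did not have raised H2B.

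Without injured Myd88KO array 5, 3 histone probes were called after injury in Myd88KO mice, with 4.12% of all tested probes. H2afx (1.72, adjusted p = 0.00151) and H2afz (adjusted p = 0.00228) were higher and Hist1h2be (−1.47, adjusted p = 0.00363) was lower. In injured Myd88KO mice Hist1h2be gave −4.65, −5.91, −5.11, −6.30 and −3.53, and −3.85 to −4.21 in uninjured ones. Its probe was well above background on all 5 uninjured arrays but on only 2 of the 4 injured arrays left, so that the size of this difference rests in part on values at background. The array left out was the brightest of the 5. At an unadjusted p under 0.05, 12 histone probes were then higher and 13 lower, against 2680 and 4503 of all tested probes. The replication-dependent median was −0.17 and the replication-independent one 0.29. With arrays weighted by their spread about the fitted group means (limma array weights), 5 histone probes were called, with 7.31% of all tested probes. They were the same 3 and the probes of Hist1h2af (1.65, adjusted p = 0.00443) and Hist1h2ak (1.28, adjusted p = 0.00761), both higher. The weights came from these same values. They were lowest for injured Myd88KO arrays 1 (0.320) and 5 (0.323), against 1.16 to 1.53 on the other arrays of that group.

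**Figure D4:**
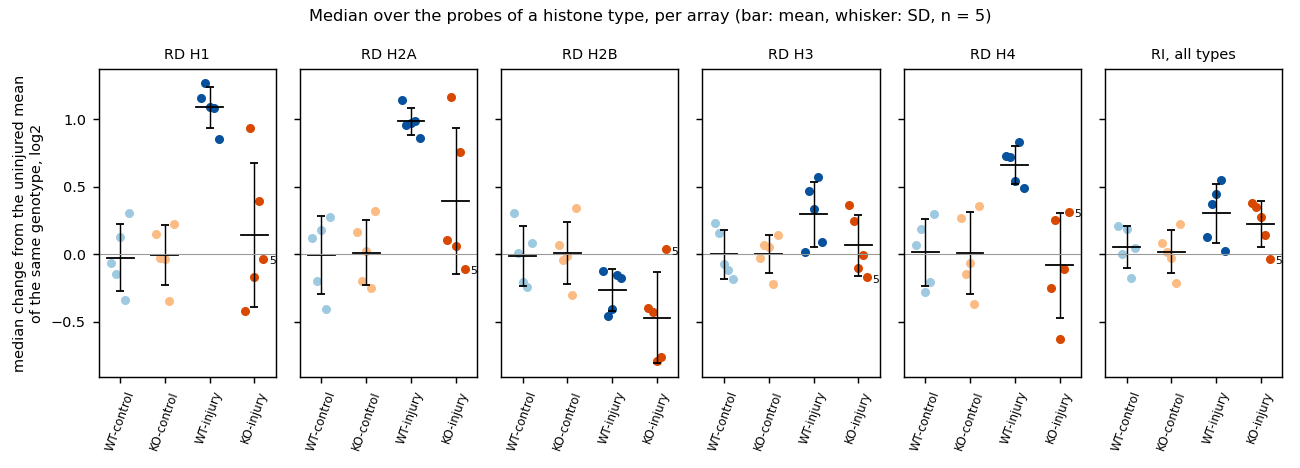
Median over the tested probes of each replication-dependent histone type and of the replication-independent class of the change from the uninjured mean of the same genotype (vertical axis, log2), 1 point an array, with the mean and SD of each group (n = 5). Injured wild-type arrays lie at 0.85 to 1.26 for H1 and at −0.46 to −0.13 for H2B, and injured Myd88KO arrays at −0.43 to 0.93 for H1.

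In uninjured tracheas 1 histone probe was called between the genotypes. Over the whole array 0.188% of tested probes were called higher and 0.196% lower in Myd88KO. The probe is named Hist1h4i (H4c9), an H4 gene of the cluster on chromosome 13, and lists no RefSeq gene. It gave 1.00, 1.31, 0.77, 0.66 and 1.29 in wild-type and 2.67, 2.07, 2.06, 2.10 and 3.02 in Myd88KO tracheas, without overlap. The log2 difference was 1.38 ± 0.23 (SE), or 2.60-fold (adjusted p = 0.00254). It was higher on each of the 5 slides, by 0.77 to 1.73, and within the first and the second scan day by 1.16 and 1.70. The probe was picked by its call on these same arrays, so that these values are a description only.

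The other H4 probes did not share this difference, since only 1 of the 7 passed even an unadjusted p of 0.05. After injury the Hist1h4i probe gave 1.28 to 1.73 in wild-type and 1.52 to 2.70 in Myd88KO tracheas (0.43, adjusted p = 0.452). The call was lost when only the 2 uninjured groups were fitted (adjusted p = 0.012), with the methods' one-way test (adjusted p = 0.064), and without wild-type array 3 or 4 or Myd88KO array 1. The replication-dependent median between the uninjured genotypes was 0.08, against 0.04 over all tested probes.

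In injured tracheas none of the 58 histone probes was called between Myd88KO and wild-type by limma, nor by the methods' one-way test, and 0.38% of all tested probes were called. At an unadjusted p under 0.05, 27 histone probes were lower in Myd88KO and 0 higher, against 8.09% of all tested probes lower. Of the 35 replication-dependent probes 22 were among them, and their median was −0.54, with −0.14 for the replication-independent and −0.03 for all tested probes. Other genes were lower on the same arrays. Of the S phase probes 16 of 26 were lower at this level and all 26 differences were below 0 (median −0.78), and of the neutrophil and macrophage probes 8 of 13 were lower and all 13 below 0 (median −1.30). Without array 5 these medians were −0.46 and −0.73, with 6 and 5 probes lower, against 1777 of all 26063 tested probes. Their part in the histone values was not tested. The smallest adjusted p was that of the dimmer Hist1h1d probe. It gave −2.77, −2.38, −2.52, −2.59 and −3.02 in injured wild-type and −4.55, −2.80, −3.88, −3.44 and −4.67 in injured Myd88KO tracheas (−1.21, adjusted p = 0.0409).

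Hist1h1e gave 1.55, 1.87, 1.58, 1.85 and 1.54 against 0.07, 1.47, 0.37, 1.00 and 0.39 (−1.02, adjusted p = 0.0572), with no overlap between the genotypes. Injured Myd88KO array 2 was the highest of its group for both. Without that array, where 0.46% of all tested probes were called, 3 histone probes were called lower in Myd88KO, Hist1h1d (−1.48, adjusted p = 0.0017), Hist1h1e (−1.22, adjusted p = 0.00716) and Hist1h4d (−0.97, adjusted p = 0.00761). Without array 5 none was called, with 0.326% of all tested probes called. At an unadjusted p under 0.05, 24 of the 35 replication-dependent probes were then lower, against 1777 of all 26063 tested probes. The replication-dependent median was −0.61, against −0.05 over all tested probes.

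Testing whether the injury response itself differed between the genotypes called 0 of the 58 histone probes, as it called 0% of all tested probes (limma, smallest adjusted p of a histone probe 0.391). At an unadjusted p under 0.05, 18 histone probes had a smaller response in Myd88KO, 14 of them replication-dependent, against 6.96% of all tested probes. The 7 H4 probes were among the 14, but some of them may not be separate measurements, as given above. The median difference in response was −0.70 over the replication-dependent probes, −0.13 over the replication-independent and −0.09 over all tested probes, and without array 5 it was −0.67 for the first and 0.06 for the second of these classes. For the 2 H2A variants called in wild-type, the difference in response was −0.21 ± 0.46 (SE) for H2afx and −0.13 ± 0.32 for H2afz. These comparisons share the same injured and uninjured arrays and are not separate evidence.

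How far the probes follow each other over the 20 arrays was described by Pearson's r between the replication-dependent probes and those of Hist1h2aa and Hist1h2ba. All points share the arrays and their groups, and no test was made. Over 144 pairs of different genes of 1 type the median r was 0.63, and 26 pairs were above 0.95. Over 515 pairs of different types it was 0.25, with 6 pairs above 0.95. H2A and H2B probes had a median r of −0.15 (117 pairs), whereas H1 and H2A had 0.61 (78 pairs).

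The nearest profile to Hist1h1b was that of Hist1h2ab (r = 0.970). The Hist1h4d and Hist1h4f probes followed each other at 0.992, and H2afx and H2afz, of the replication-independent class, at 0.965. Probes that list some of the same genes, such as those of Hist1h2bk and Hist1h2bm (0.995), can read the same messages.

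**Figure D5:**
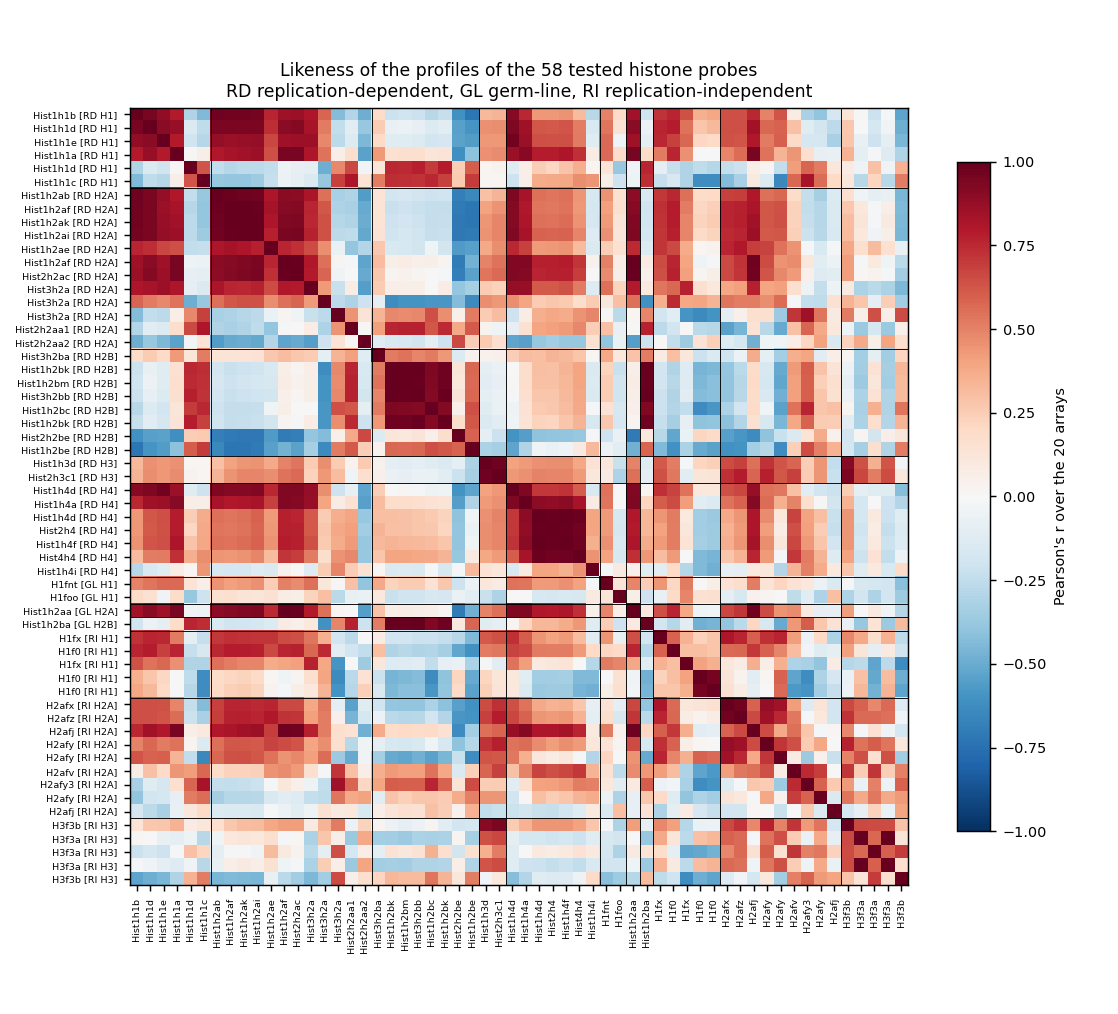
Pearson's r (colour, from −1 in blue to 1 in red) between the values of histone probes over the 20 arrays, with probes ordered by class and type. The median r is 0.58 between H2B probes (range −0.14 to 0.996) and −0.15 between H2A and H2B probes (range −0.73 to 0.77).

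Genes that serve the histones were counted from lists. Of 21 S phase genes, which drive DNA synthesis and with it histone transcription, 20 were tested, and 14 of them (17 of 26 probes) were called higher in injured wild-type tracheas, with a median of 1.63. On the log2 scale, cyclin E1 (Ccne1) rose by 2.52 on its brighter probe (adjusted p = 0.000276), the licensing factor Cdt1 by 2.43 (adjusted p = 0.000492) and the ribonucleotide reductase subunit Rrm2 by 2.07 (adjusted p = 0.00434). In Myd88KO tracheas none was called, 20 of 26 probes were higher at an unadjusted p under 0.05, and the median was 0.90. Without injured Myd88KO array 5, 9 genes (11 probes) were called higher and the median was 1.24. To set beside this list and those below, 3.24% of all tested probes were called higher and 2.03% lower in wild-type. In Myd88KO 7.32% were higher at an unadjusted p under 0.05, and without array 5, 487 of 26063 were called higher.

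Of 14 genes for processing and transcription of histone messages (23 probes), 2 were called higher in wild-type, and the median was 0.37. Slbp, which binds the stem-loop at the end of histone messages, rose 1.71-fold (adjusted p = 0.00563), and Eri1, an exonuclease that trims and degrades them, 1.54-fold (adjusted p = 0.00374). Npat, the activator of histone gene transcription in S phase, differed by 0.09 (adjusted p = 0.867). In Myd88KO tracheas none was called and the median was 0.45, with Slbp at 0.83 (adjusted p = 0.0152). Without array 5, 2 were called higher and the median was 0.57.

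Of 22 histone chaperone genes (40 probes), 5 were called higher in wild-type and the median was 0.30. They were Chaf1b (4.91-fold, adjusted p = 0.000459) and Asf1b (3.80-fold, adjusted p = 0.00287), which place H3 and H4 on new DNA, Nasp (2.01-fold, adjusted p = 0.00408), which binds H1 and H3, Hjurp (1.70-fold on 1 of its probes, adjusted p = 0.00535), which loads the centromeric H3, and Daxx (1.41-fold, adjusted p = 0.00853), which loads H3.3. In Myd88KO tracheas none was called and the median was 0.06, with 12 of 40 probes higher at an unadjusted p under 0.05. Without array 5, 7 probes were called higher and the median was 0.12.

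Cell type markers moved with the injury as well. Proliferation markers (8 of 10 genes called higher in wild-type, median 2.31) had a summed linear level (on the same scale) of 4.79 to 18.8 in uninjured and 34.3 to 56.8 in injured wild-type tracheas, and of 4.49 to 46.6 in injured Myd88KO tracheas. In the injured Myd88KO tracheas 0 of the 14 probes were called higher by limma, although all 14 had an unadjusted p under 0.05, and without array 5, 13 were called higher. Of 9 neutrophil and macrophage genes on the array 5 were called higher in injured wild-type, and 3 of 6 club cell genes lower. Their part in the histone values was not tested.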

How the data were processed

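Scanner files of 20 one-colour Agilent whole mouse genome arrays were analysed. The authors deposited background-subtracted spot intensities made with Agilent Feature Extraction 9.5.1.1 (per the labels' processing notes), not scaled between arrays, and a value table of the same intensities (ratio to the scanner values 0.995 to 1.00). Each array held 45018 spots. Of these, 1639 control spots and, over all arrays, 1960 outlier values (4 of histone probes) were left out, the 1 saturated spot stayed in, and replicate spots of a probe were averaged. The log2 intensity was taken relative to the 75th percentile of the array. Probes well above background on at least 10 of 20 arrays were tested.

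All arrays were fitted in 1 model with limma 3.58.1 under R 4.3.3 (lmFit, then eBayes on 5 contrasts), with Benjamini-Hochberg adjustment and a threshold of 0.01. The procedure was tested on simulated data. The histone members, classes and gene lists were chosen with earlier results of these data known, so they were counted and not tested as sets. Named genes were all called probes, the 10 replication-independent somatic variants and, where shown as contrast to them, members chosen after their values were seen. A one-way parametric test, the kind that the study's methods name, was an alternative. It was run on the 2 groups compared, with the scaling and filter used here, and need not equal the study's own run. Names were taken from a RefSeq table by accession (54 probes) or older symbol (13). The labels give 600 ng of labelled RNA and the methods more. Only 5 arrays a group limit the precision.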

Additional observations from a re-analysis of the deposited data

Results flagged for a closer look

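Of 228 groups of 5 values examined (58 probes in 4 groups, without groups lacking a value), 1 had a value far from the rest, where chance alone flags about 1 in 20. It was the Hist1h2ae probe in injured Myd88KO tracheas, an H2A probe not called in any comparison. Array 5 gave −5.27 and the nearest of the other 4 gave −4.02, so that the gap took a share of 0.763 of the whole range of the group. Array 5 is the array without an injury response over the whole array.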

How the results depend on the processing

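Under 7 other treatments of the intensities, 3 blocks or weights and 2 other tests, the count of histone probes called in injured wild-type tracheas stayed within 1.5 times the 14 of the main setting, for example 16 after quantile normalization and 13 with normexp background correction. With the slide as a replicate block it was 13, Hist1h1b being lost, and the block changed no other histone call. Replicate numbers shared only a slide (same-number arrays deviated together with a median r of 0.24, range −0.26 to 0.48, over 30 pairs). Leaving out 1 array at a time gave 7 to 16 calls in wild-type, with 7 without uninjured wild-type array 2 or 4, 8 without injured wild-type array 2 and 9 without injured wild-type array 1. In Myd88KO it gave 0 to 3, between the uninjured genotypes 0 to 1, and between the injured genotypes 0 to 3. Array weights gave 21 calls in wild-type and 5 in Myd88KO, and over all tested probes they gave 2599 calls in wild-type and 1904 in Myd88KO in place of 1372 and 98. Scan day as a term gave 2106 over all probes in wild-type, and single left-out arrays 665 to 1843. In Myd88KO the count over all probes ran from 0 (both fits of only 2 groups) over 361 (scan day) to 1904. Between the uninjured genotypes the fit of 2 groups and the methods' one-way test called 0 histone probes. Over all tested probes they called 100 and 46.

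The median of the H2A probes in wild-type was 0.85 with normexp, 0.88 without a filter, 1.12 with array weights, 0.89 without uninjured wild-type array 4 and 1.34 over probes that list 1 gene, an alternative chosen after seeing the data. The H1 median was 0.59 with normexp and 0.80 without a filter or with 1 probe a gene. The replication-independent median ran from 0.04 without a filter to 0.50 with 1 probe a gene. The dimmer Hist1h1d probe stayed called at 0.71 with normexp, against 1.45. The cause was not tested. No direction reversed among the called probes, and the H2B median stayed below 0 under each scaling. Signal over background limits the dim probes of Hist1h3a, Hist1h2be and Hist1h1d.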
